A study of Mus musculus with 3 samples.

Results

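The Xcr1 Clec9a dendritic cells of the mouse aortic adventitia were examined in 3 droplet single-cell RNA-seq libraries. A barcode was taken as one of these cells when at least 2 of the transcripts Xcr1, Clec9a and Flt3 were present, one of them Xcr1 or Clec9a. Col1a1, Col1a2, Dcn and Lum together had to stay below 1% of its unique molecular identifiers (UMIs, each counting 1 captured transcript), and C1qa, C1qb and C1qc below 0.3%. The cells were thus chosen by their own Xcr1, Clec9a, Flt3, collagen and C1q transcripts. The rule found 207 cells among 42779 barcodes that passed the filters on quality. Of these, 56 of 13861 were in the Vehicle library, 75 of 9899 in the AngII library and 76 of 19019 in the AngII_VWR library. The adventitia, the outer coat of the aorta, was taken from mice under 3 regimes. Vehicle mice received saline, AngII mice received angiotensin II, a peptide hormone that constricts vessels, and AngII_VWR mice received that peptide and also ran voluntarily on a wheel (VWR). Each group had 3 mice and is represented by 1 library, and the strain, sex, age, dose and duration are not given in the sources used here. How the mice of a group were combined is not given either, so the libraries have no replicates and no difference between conditions was tested. The title of the series names habitual exercise, neuro-immune interaction and aortic stiffness as its subject.

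Type 1 conventional dendritic cells are a small lineage of antigen-presenting cells that depends on the growth factor receptor Flt3 and on the transcription factors Irf8 and Batf3. Clec9a is a C-type lectin that binds actin filaments exposed by dead cells, and Xcr1 is the receptor for the chemokine Xcl1, which is made by natural killer and CD8 T cells. The lineage is known for cross-presentation, the display of captured antigen on MHC class I to CD8 T cells, and for making interleukin 12. Type 2 conventional dendritic cells, which depend more on Irf4 and in mouse tissues often carry Cd209a, are the other main conventional lineage.

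In the GENCODE M21 annotation of GRCm38, the build that mm10 names, Xcr1 (ENSMUSG00000060509) lies on the minus strand at chr9:123852315-123862029. Clec9a (ENSMUSG00000046080) lies on the plus strand at chr6:129408862-129424763, and Flt3 (ENSMUSG00000042817) on the minus strand at chr5:147330741-147400489. The 250 bases before the start of 4 genes are shown: Xcr1 and Clec9a, which define the cells, and Ifi205 and Jaml, genes of the type 1 list whose windows hold an interferon-stimulated response element, GAAA followed after any 2 bases by a second GAAA, of the kind IRF family factors bind. They come from RefSeq on GRCm38.p6 and are written 5′ to 3′ on each gene's own strand, with the element in capitals.
Xcr1, chr9:123862030-123862279, minus strand: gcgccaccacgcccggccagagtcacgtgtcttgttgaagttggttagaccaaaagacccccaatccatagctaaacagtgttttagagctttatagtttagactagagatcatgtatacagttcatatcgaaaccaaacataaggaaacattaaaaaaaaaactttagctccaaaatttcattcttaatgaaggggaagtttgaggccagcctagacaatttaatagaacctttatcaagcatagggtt
Clec9a, chr6:129408612-129408861, plus strand: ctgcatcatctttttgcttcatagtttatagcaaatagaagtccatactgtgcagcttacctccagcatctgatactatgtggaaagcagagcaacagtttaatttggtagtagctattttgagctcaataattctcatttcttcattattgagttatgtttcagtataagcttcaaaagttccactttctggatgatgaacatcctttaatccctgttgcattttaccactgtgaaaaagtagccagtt
Ifi205, chr1:174031756-174032005, minus strand: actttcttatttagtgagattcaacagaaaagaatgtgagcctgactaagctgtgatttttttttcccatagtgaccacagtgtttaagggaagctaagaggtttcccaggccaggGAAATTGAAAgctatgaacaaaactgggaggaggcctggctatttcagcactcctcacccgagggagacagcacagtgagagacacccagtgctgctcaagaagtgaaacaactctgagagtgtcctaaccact
Jaml, chr9:45078933-45079182, plus strand: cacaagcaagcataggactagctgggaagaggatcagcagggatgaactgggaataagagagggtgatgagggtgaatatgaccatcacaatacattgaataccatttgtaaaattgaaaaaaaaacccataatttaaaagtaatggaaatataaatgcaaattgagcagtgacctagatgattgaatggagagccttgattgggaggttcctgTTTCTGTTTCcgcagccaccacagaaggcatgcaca
In Ifi205 the match GAAATTGAAA ran from 134 to 125 bases before the start. In Jaml the match GAAACAGAAA was on the opposite strand, so that the strand shown reads TTTCTGTTTC, from 36 to 27 bases before the start. Of the 27 genes in the rule and the type 1 list, 21 were found by symbol, with 26 windows. The interferon-stimulated response element, searched on both strands, occurred in 3 of those windows (11.5%) and in 978 of 32851 windows of all genes (2.98%). Besides Ifi205 and Jaml, the 3 windows included that of Tlr11, which is not shown, with a match that began 122 bases before the start. The element shared by ETS and IRF factors, GGAA followed after any 2 bases by GAAA, occurred in 0 of the 26 and in 756 of all (2.3%). TGANTCA, the site of AP-1 and Batf factors, occurred in 0 of the 26 and in 2217 of all (6.75%). The matches describe these letters in these windows only.

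The libraries held 15093, 10515 and 19633 barcodes in the order Vehicle, AngII and AngII_VWR, and the same order is used for all series of 3 values below. Their totals were 165977330, 141570158 and 105679209 UMIs, and the kept barcodes had medians of 10174, 13460 and 4638 UMIs. The Xcr1 Clec9a cells were deeper than the rest of their libraries, with medians of 20795.5, 25432.0 and 11825.5 UMIs and of 4117, 4330 and 3204.5 genes. In all, 1269498, 1980655 and 856790 UMIs were summed over them. Between 44 and 80 barcode sequences were shared by 2 libraries, and 0 of them belonged to an Xcr1 Clec9a cell. Doublets were kept, as the rule has it. The highest Scrublet scores, taken at 0.8% per 1000 barcodes, marked 12 of 56, 6 of 75 and 5 of 76 of the cells. Of all kept barcodes they marked 11.1%, 7.92% and 15.2%.

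All 3 transcripts of the rule were present in 40, 66 and 45 cells. Clec9a and Flt3 without Xcr1 were present in 14, 8 and 21, Xcr1 and Flt3 without Clec9a in 0, 1 and 5, and Xcr1 and Clec9a without Flt3 in 2, 0 and 5. Just outside the rule were 10, 6 and 31 barcodes with Xcr1 or Clec9a as their only one of the 3 transcripts. Their median depth was 11294, 22356.5 and 4796 UMIs, lower than that of the cells taken. The highest collagen share inside the rule was 0.787%, 0.835% and 0.88%, and the lowest share that put a barcode outside was 1.02%, 1.25% and 1.18%. Xcr1 stood at 147, 225 and 166 counts per 1000000 of the summed UMIs (CPM) and Clec9a at 243, 360 and 351 CPM. Flt3 stood at 150, 237 and 232 CPM. These levels chose the cells and are given as a description.

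The label was checked against markers that the rule did not use, apart from C1qa, C1qb and C1qc in the macrophage list. Each of the 24 genes of the type 1 dendritic cell list was present in every library, and their summed level was 6974.4, 9743.7 and 8772.3 CPM. The same sum was 949, 1050.2 and 930 CPM in all other kept barcodes. Irf8, which directs the development of the lineage, stood at 729, 946 and 998 CPM. Wdfy4, required for cross-presentation, stood at 807, 1402.6 and 1373.7 CPM. The T cell list stood at 4.73, 2.02 and 2.33 CPM, compared with 86.5, 47.1 and 35 CPM in all other kept barcodes. The natural killer list stood at 11, 5.05 and 10.5 CPM, compared with 18.8, 25.6 and 6.54 CPM. It was thus not lower in the AngII_VWR library. The type 2 dendritic list stood at 1845.6, 741 and 955 CPM, compared with 2277.3, 1981.8 and 1811.1 CPM. The plasmacytoid list stood at 730, 193 and 511 CPM, compared with 466, 572 and 663 CPM, and was thus higher in the Vehicle library. The macrophage list stood at 2123.7, 2057.4 and 1718.0 CPM, compared with 51040.8 CPM in the C1q macrophages of the Vehicle library. Both populations were chosen on their C1q transcripts, so part of this last contrast was fixed by the choice.

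Not every cell that met the rule had this profile. Cd209a, Mgl2 and Clec10a, markers of type 2 dendritic cells, together reached 10 UMIs in 8, 2 and 3 of the cells. Xcr1 was at 0 in 8, 2 and 2 of these, and Irf8 was at 0 CPM in all of them. Their summed level of 9 type 1 genes that the rule did not use (Irf8, Cadm1, Naaa, Wdfy4, Tlr3, Rab7b, Ppt1, Cd24a and Itgae) was 561, 769 and 500 CPM. In the cells with neither set of transcripts, 46, 73 and 71 in number, it was 4851.8, 6497.7 and 5878.3 CPM. The transcription factor Zeb2 stood at 1047.5, 1204.9 and 1770.4 CPM in the cells with type 2 transcripts. In those with neither set it stood at 32.1, 42.9 and 87 CPM. A further 2, 0 and 2 cells held at least 10 UMIs of Siglech, Ly6d, Klk1 and Cox6a2, transcripts of plasmacytoid dendritic cells, with Tcf4, the factor that specifies those cells, at 4532.3 CPM in the Vehicle library and 4595.3 CPM in the AngII_VWR library. Cells with either set are called mixed cells below, for these transcripts only. The name does not mean that they had a type 1 profile. They made up 10 of 56 cells in the Vehicle library and 2 of 75 in the AngII library. In the AngII_VWR library 71 of 76 cells held neither set. The limit of 10 UMIs was not scaled to depth, and the cells of the AngII_VWR library were the shallowest. In the cells with neither set Cd209a stood at 0.918, 0.517 and 9.8 CPM. The lowest level of the 9 type 1 genes in any 1 of them was 1864.8, 760 and 130 CPM. Values without the mixed cells are thus not at a common depth. Some of the results that the mixed cells move are given with and without them.

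The Xcr1 Clec9a cells were a larger share of barcodes in the AngII library than in either other library. They were 0.404% of kept barcodes in the Vehicle library (exact Clopper-Pearson 95% interval 0.305 to 0.524), 0.758% in the AngII library (0.596 to 0.949) and 0.4% in the AngII_VWR library (0.315 to 0.5). The share was 1.88 times as large in AngII as in Vehicle (1.31 to 2.7), 0.527 times as large in AngII_VWR as in AngII (0.378 to 0.736), and 0.989 times as large in AngII_VWR as in Vehicle (0.691 to 1.42). All intervals here cover counting error only and leave out differences between mice and preparations. Fibroblasts, which carry the collagen transcripts, made up most barcodes. Of kept barcodes under the collagen limit the cells were 0.896%, 2.38% and 1.37%, and on that denominator AngII_VWR was 1.53 times Vehicle (1.07 to 2.2).

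The AngII library was also highest in 3 other counts of the cells. Without the mixed cells the shares were 0.332%, 0.737% and 0.373%. With all 3 transcripts required they were 0.289%, 0.667% and 0.237%, and the share in AngII_VWR was then 0.355 times that in AngII. This count was not made at a common depth, and the AngII_VWR cells had the lowest median depth, 11825.5 UMIs against 25432.0 in AngII. When each barcode was thinned to 2000 UMIs, 14 of 11742, 28 of 9133 and 25 of 15265 barcodes met the rule, or 0.119%, 0.307% and 0.164%. The share in AngII_VWR was then 0.534 times that in AngII (0.299 to 0.95). The Cd209a cells were most frequent in the AngII_VWR library. They were 0.173%, 0.505% and 0.615% of kept barcodes, so that the Xcr1 Clec9a cells were 70% (58.7 to 79.7), 60% (50.9 to 68.7) and 39.4% (32.4 to 46.7) of both populations together. The Cd209a cells had median depths of 21464.5, 19456.0 and 6577.0 UMIs. Neither their share nor this split was computed at a common depth.

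**Figure D1:**
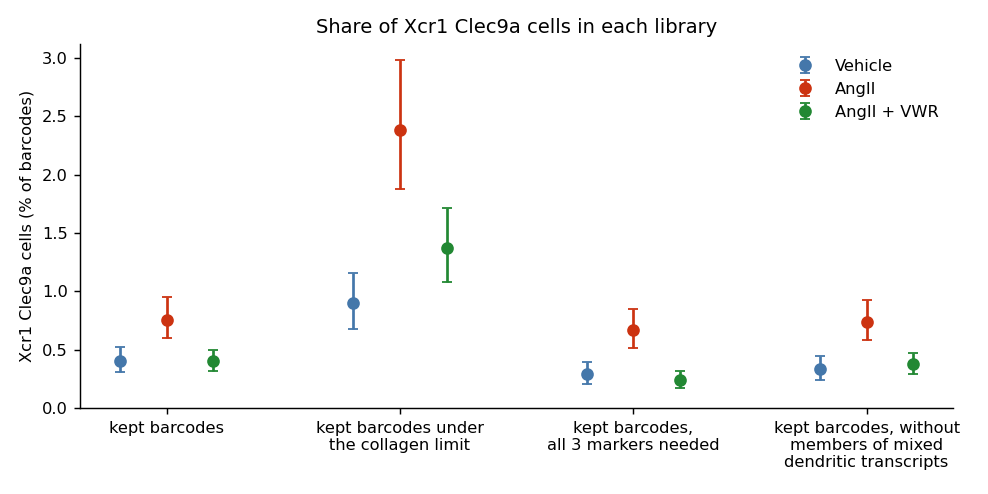
Share of barcodes that were Xcr1 Clec9a cells (y axis, percent) in each library under 4 ways of counting (x axis). Points are shares and bars exact 95% binomial intervals, and the AngII library is highest in all 4, for instance 0.758% against 0.404% in Vehicle among kept barcodes.

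The comparison with Cd209a cells asked which genes separate the 2 dendritic populations within the same libraries. Cd209a cells had at least 2 UMIs of Cd209a, or 1 with Flt3, lacked Xcr1 and Clec9a and met the same collagen and C1q limits. They numbered 24, 50 and 117. Summed UMIs of both populations were compared with edgeR's quasi-likelihood test, with the library as a block (6 sums, n = 3 libraries). Of 7852 genes tested, 495 were higher in the Xcr1 Clec9a cells (6.3%) and 688 lower (8.76%) at a Benjamini-Hochberg adjusted p under 0.05. The counts moved by over 1.5 times when 1 library was left out: without the AngII library 161 were higher and 224 lower, and without the AngII_VWR library 189 and 249.

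In the type 1 list, 21 of 24 genes were higher and 1 was lower, with a median log2 fold change of 3.15 beside 0.01 over all genes tested. Itgae, the integrin chain CD103, stood at 128.4, 147.4 and 156.4 CPM in the Xcr1 Clec9a cells and at 0, 1.775 and 3.612 CPM in the Cd209a cells. Its log2 fold change was 6.12 ± 0.39 (SE, n = 3, edgeR adjusted p = 0.00014). Tlr3, the endosomal receptor for double-stranded RNA, stood at 94.53, 145.4 and 161.1 CPM against 0, 2.662 and 3.612 CPM, a log2 fold change of 5.82 ± 0.36 (edgeR adjusted p = 0.000138). Both genes were higher in all 3 libraries with no overlap between the populations. Irf8 was higher by 4.71 ± 0.54 (edgeR adjusted p = 0.0011), and the adhesion molecule Cadm1 by 4.81 ± 0.39 (edgeR adjusted p = 0.00031). Gcsam and Snx22 had 0 UMIs in the Cd209a cells of all libraries. Set against a floor of 3 UMIs over the group, the excess of Gcsam was at least 78.4-fold and that of Snx22 at least 27-fold, and the median of the list was 3.15 with both at these bounds. The promoter windows of Ifi205 and Jaml are those shown above. Ifi205, an interferon-inducible gene, stood at 202.4, 203 and 204.3 CPM against 3.957, 13.31 and 9.633 CPM (4.39 ± 0.29, edgeR adjusted p = 0.000185). Jaml, an adhesion molecule, differed less, at 213.5, 218.1 and 194.9 CPM against 39.57, 54.13 and 138.5 CPM (1.56 ± 0.35, edgeR adjusted p = 0.0203).

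Batf3, the factor named with the lineage, did not pass the test. It stood at 135.5, 104.5 and 136.6 CPM against 170.1, 107.4 and 72.25 CPM, and its log2 fold change was 0.15 ± 0.26 (edgeR adjusted p = 0.774). Nfil3, a factor needed for development of the lineage, was the 1 gene of the list that was lower, by 0.80 on the log2 scale, with a log2 fold change of -0.80 ± 0.21 (edgeR adjusted p = 0.0353). Tlr11 had a log2 fold change of 2.74 ± 0.80 (edgeR adjusted p = 0.0563).

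**Figure D2:**
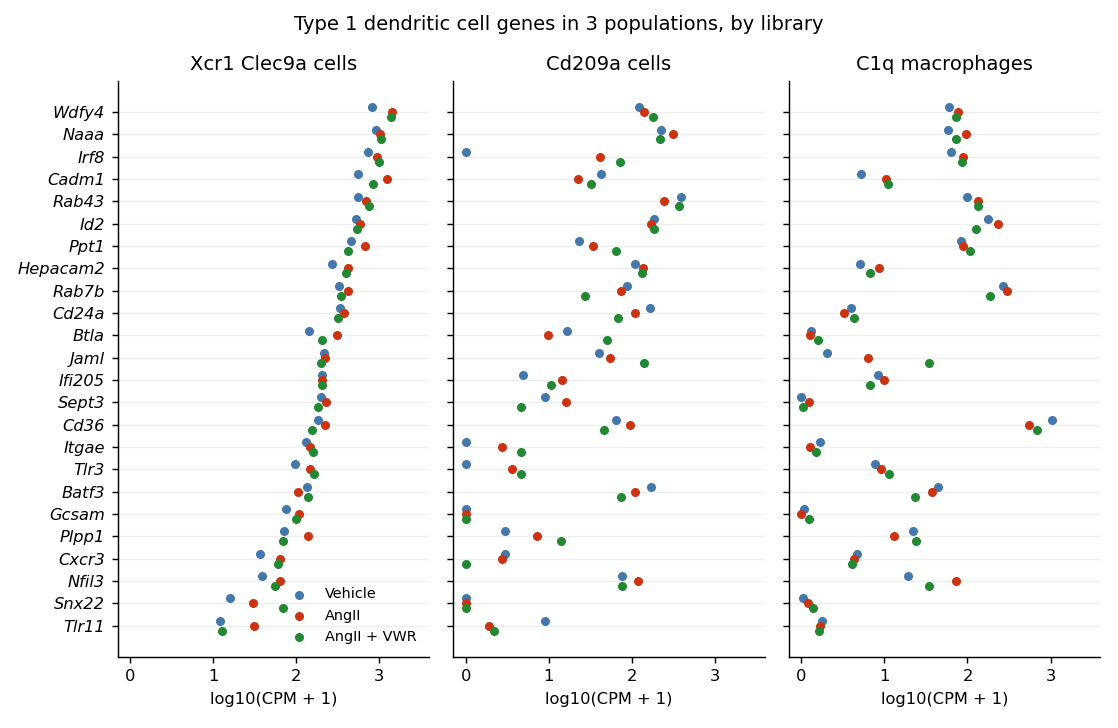
Levels of the 24 type 1 dendritic cell genes (y axis) as log10 of CPM + 1 (x axis) in 3 populations, with 1 point per library. Itgae and Tlr3 lie between 94.53 and 161.1 CPM in all libraries of the Xcr1 Clec9a cells and below 4 CPM in the Cd209a cells, whereas the points of Batf3 in these 2 populations overlap.

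Further named genes separated the populations. Among the 15 highest named genes were Scin, an actin-severing protein, with a log2 fold change of 6.16 ± 0.64 (edgeR adjusted p = 0.00069), and P2ry14, a receptor for UDP-sugars (4.21 ± 0.57, edgeR adjusted p = 0.00233). Cxcr3, a gene of the type 1 list and the receptor for Cxcl9 and Cxcl10, stood at 35.45, 62.1 and 59.52 CPM against 1.978, 1.775 and 0 CPM. The Cd209a cells held 3 of its UMIs in all and the Xcr1 Clec9a cells 219, a ratio of summed levels of 43.8 (exact 95% interval 14.8 to 214, counting error only; edgeR adjusted p = 0.000572). Among surface receptors, Havcr2 (Tim-3) was higher by 2.98 ± 0.34 and Kit, the stem cell factor receptor, by 1.78 ± 0.40 (edgeR adjusted p = 0.00101 and 0.0201). Ly75, the endocytic lectin DEC-205, was at 0 in the Cd209a cells of all libraries and at least 48.2-fold higher against the same floor. Lowest was Retnla, a secreted resistin-like protein, at 52.78, 9.088 and 11.67 CPM against 4922, 1743 and 936.8 CPM (-6.85 ± 0.25, edgeR adjusted p = 2.39e-05). Areg, an epidermal growth factor receptor ligand, and Ptgs2, the inducible cyclooxygenase, were lower too, with log2 fold changes of -5.92 ± 0.32 and -3.91 ± 0.30 (edgeR adjusted p = 0.000138 and 0.000254). Markers of other cells were also higher in the Cd209a cells. Of the macrophage list 5 of 9 genes tested were lower in the Xcr1 Clec9a cells, of the monocyte list 4 of 7, and of the innate lymphoid list 3 of 4, Areg among them. Csf1r in the macrophage count and Ccr2 in the monocyte count also belong to the type 2 list and are counted again there. The macrophage list summed to 8205.8, 6489.9 and 3807.3 CPM in the Cd209a cells against 2123.7, 2057.4 and 1718.0 CPM, and the innate lymphoid list to 837, 632 and 417 CPM against 62.2, 16.7 and 37.3 CPM. The monocyte list summed to 2217.6, 1935.3 and 1654.4 CPM against 532, 407 and 816 CPM. What part these other cells had in the lower genes was not tested. In the type 2 list 10 of 11 genes tested were lower and 0 higher (median -3.22), among them Sirpa at -3.46 ± 0.45 and Irf4 at -3.44 ± 0.27 (edgeR adjusted p = 0.00197 and 0.000261). Of the dendritic transcription factors, Mycl, Irf8 and Id2 were higher and 8 of 24 were lower, including Zeb2 at -3.55 ± 0.31 (edgeR adjusted p = 0.00042).

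**Figure D3:**
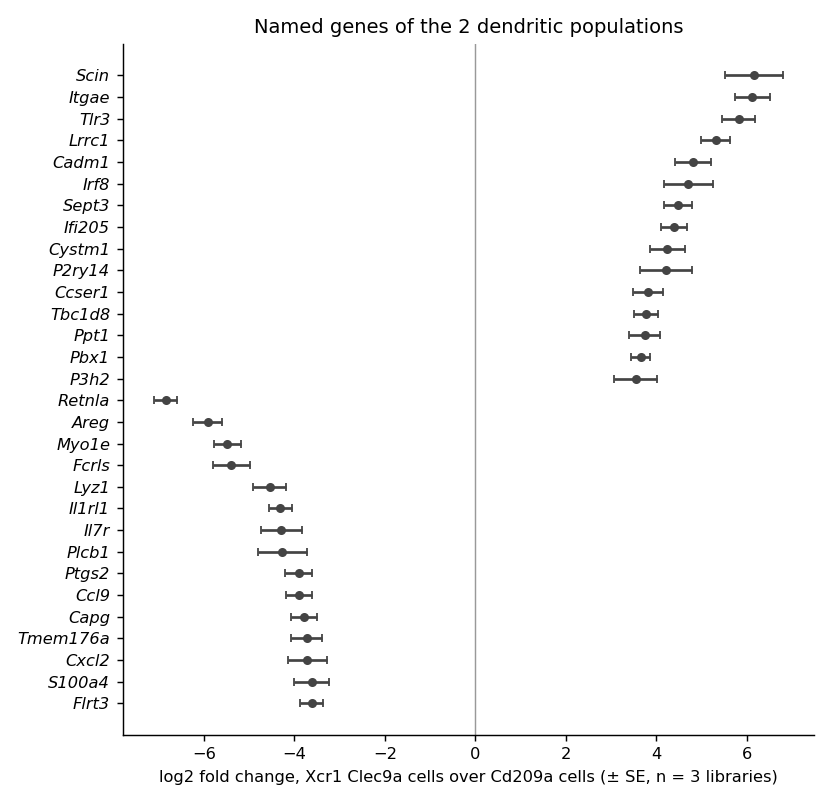
Log2 fold change of Xcr1 Clec9a cells over Cd209a cells (x axis, points with bars of ± SE, n = 3 libraries) for the 15 highest and 15 lowest named genes (y axis). The values run from 6.16 for Scin to -6.85 for Retnla.

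Antigen presentation genes and further lists were counted by class. Over all genes tested, 6.3% were higher and 8.76% lower. In the list of MHC class I and cross-presentation genes, 9 of 26 were higher and 4 lower. The 2 chains of the peptide transporter, Tap1 and Tap2, were higher by 1.32 ± 0.21 and 1.36 ± 0.21 (edgeR adjusted p = 0.00436 and 0.00378), and the immunoproteasome subunits Psmb9 and Psmb8 by 2.27 ± 0.17 and 1.31 ± 0.15 (edgeR adjusted p = 0.000234 and 0.00107). Wdfy4 was higher by 3.01 ± 0.19 (edgeR adjusted p = 0.00014), and Cybb, a subunit of the phagocyte NADPH oxidase, was lower (-3.21 ± 0.31, edgeR adjusted p = 0.00052). In the MHC class II list 1 of 15 was higher and 3 were lower. Cd74, the invariant chain, and the class II chain H2-Ab1 did not pass, with log2 fold changes of -0.30 ± 0.10 and -0.20 ± 0.10 (edgeR adjusted p = 0.0914 and 0.252). Cst3, a cathepsin inhibitor that is abundant in this lineage, was higher (2.22 ± 0.12, edgeR adjusted p = 0.000138). Among 19 cytokine and chemokine genes only Il12b was higher and 9 were lower. A count of 1 higher gene in a list of 15 or 19 is near the share over all genes. Il12b, the shared subunit of interleukins 12 and 23, stood at 219, 273.6 and 81.7 CPM against 0, 78.97 and 0 CPM (3.34 ± 0.75, edgeR adjusted p = 0.0205). Only 7, 11 and 7 of the Xcr1 Clec9a cells held its UMIs, and the top 3 cells held 97.1%, 86% and 75.7% of them. Il1b, the inflammatory cytokine interleukin 1 beta, was lower (-1.01 ± 0.21, edgeR adjusted p = 0.015). In the dissociation stress list, immediate early and heat shock genes that enzymatic digestion can raise, 11 of 24 were lower and 0 higher. Its sums were 25932.3, 12501.9 and 15665.4 CPM in the Xcr1 Clec9a cells and 34124.8, 18731.4 and 19529.1 CPM in the Cd209a cells, and its part in these differences was not tested.

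Against the C1q macrophages of the same libraries (2635, 1917 and 2931 barcodes with at least 0.3% C1q transcripts and a UMI of Csf1r, without Xcr1, Clec9a or Flt3), more genes were called. Of 13217 tested, 2206 were higher in the Xcr1 Clec9a cells (16.7%) and 2773 lower (21%) by the same edgeR test. Btla, an inhibitory receptor of the immunoglobulin family, stood at 140.2, 309.5 and 205.4 CPM against 0.2958, 0.2615 and 0.5734 CPM, a log2 fold change of 9.26 ± 0.33 (edgeR adjusted p = 7e-06). Htr7, a serotonin receptor, stood at 348.2, 951.7 and 552.1 CPM against 0.1344, 5.916 and 3.727 CPM (8.10 ± 0.68, edgeR adjusted p = 0.000125). Of the type 1 list 22 of 24 were higher, including Batf3 (1.98 ± 0.23, edgeR adjusted p = 0.000608), and Cd36, a scavenger receptor that macrophages also carry, was lower (-1.93 ± 0.24, edgeR adjusted p = 0.000728). All 11 tested genes of the pan dendritic list were higher, as were 12 of 15 MHC class II genes. Zbtb46, a transcription factor that marks conventional dendritic cells, was higher by 3.32 ± 0.15 (edgeR adjusted p = 1.23e-05). All 11 tested macrophage genes were lower, with a median of -5.84. Folr2, a folate receptor of resident macrophages, stood at 4.726, 2.524 and 14.01 CPM against 1250, 758.1 and 756.9 CPM (-7.18 ± 0.42, edgeR adjusted p = 3.08e-05). Cd209f and Prune2 had only 1 UMI each in the Xcr1 Clec9a cells and no fold is given for them. Tlr7, the endosomal receptor for single-stranded RNA, was lower (-6.66 ± 0.45, edgeR adjusted p = 5.42e-05) while Tlr3 was higher (4.04 ± 0.16, edgeR adjusted p = 9.37e-06). Of the G2 and M phase genes 13 of 20 were higher and 0 lower.

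Between conditions the levels in the summed Xcr1 Clec9a cells were compared as log2 ratios of CPM + 10, over genes with at least 20 UMIs in the pair of libraries. With 1 library per group these ratios describe the libraries, and the fold intervals (exact conditional, 95%) cover counting error only. Of 8934 genes, 117 had at least a 2-fold higher level in AngII than in Vehicle (1.31%), and 270 had a level lower by 2-fold or more (3.02%), with a median log2 ratio of -0.06 over all genes, of which 42.9% had a positive ratio. Of the genes past 2-fold, 30.2% were higher. With TMM scaling 164 were higher and 224 lower, or 42.3% higher, and the median was 0.04.

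The genes of the type 1 list were mostly higher in the AngII library: 23 of 24 had a positive log2 ratio, with a median of 0.42, and 2 were at least 2-fold higher. Cadm1 stood at 547, 1237.5 and 828 CPM, a fold of 2.26 in AngII over Vehicle (2.08 to 2.47). Btla stood at 140, 309 and 205 CPM, a fold of 2.21 (1.87 to 2.62). Wdfy4, Tlr3 and Hepacam2 were between 1.54-fold and 1.74-fold higher in the AngII library. Irf8 was 1.3-fold higher (1.2 to 1.4), and Naaa, a lysosomal amidase, 1.13-fold (1.05 to 1.22). Ifi205 stood at 202, 203 and 204 CPM, a fold of 1 (0.855 to 1.18). Batf3 was the 1 gene with a negative ratio, at 135, 105 and 137 CPM, a fold of 0.771 (0.627 to 0.95). Without the mixed cells 21 of 24 were higher and the median was 0.32. In AngII_VWR over AngII, 8 were higher and 16 lower, with a median of -0.10, and with TMM scaling 2 were higher and 22 lower. Snx22, at 15, 28.8 and 68.9 CPM, was the 1 gene of the list at least 2-fold higher there, and Plpp1, at 70.1, 137 and 67.7 CPM, had the lowest ratio, a fold of 0.495 (0.366 to 0.659).

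The type 2 list moved the other way in AngII over Vehicle. All 13 measured genes were lower, 8 of them at least 2-fold, with a median of -1.20. The values moved with the mixed cells: without them 8 genes were measured, 6 were lower and the median was -0.61. Tcf4 showed the same dependence. It stood at 211, 49 and 156 CPM with a log2 ratio of -1.91, and at -0.73 without the mixed cells. Markers of other cells were lower in the AngII library too: 7 of 8 plasmacytoid genes (median -1.58), 6 of 7 monocyte genes (-0.84) and 8 of 9 macrophage genes (-0.47). The plasmacytoid list is not given here without the mixed cells. Its gene Siglech stood at 72.5, 3.03 and 47.9 CPM in all the cells and at 0.918, 3.1 and 4.9 CPM without them. What part plasmacytoid cells, monocytes and macrophages had in the type 2 list was not tested.

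Several chemokine and cytokine genes were among the named genes, and many were carried by few cells. Cxcl9, an interferon-induced ligand of Cxcr3, stood at 15.8, 141 and 19.8 CPM, 8.97-fold higher in AngII than in Vehicle (5.7 to 14.9). Its UMIs came from 15 of the 75 AngII cells, and 1 cell held 132 of 280. Cxcl10, a ligand of the same receptor, stood at 39.4, 118 and 22.2 CPM, with UMIs in 11, 18 and 3 cells. Both were higher in the AngII library than in the other two, and in the C1q macrophages Cxcl9 stood at 1.13, 39.9 and 1.61 CPM and Cxcl10 at 70.3, 186 and 23.8 CPM. Ccl5, a chemokine that attracts T cells, stood at 3.15, 115 and 1.17 CPM, but 1 AngII cell held 210 of its 227 UMIs. Without the cell with most Ccl5 in each library its log2 ratio in AngII over Vehicle was 0.69 in place of 3.24. Ccl17, a ligand of Ccr4, stood at 358, 35.8 and 25.7 CPM, a fold of 0.1 (0.0768 to 0.129), and 1 Vehicle cell held 194 of its 455 UMIs. Without that cell the Vehicle level was 209 CPM. Tnf, at 262, 60.1 and 59.5 CPM, was also highest in the Vehicle library, with 6 of 56 cells holding 90% of its UMIs.

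Type I interferon response genes had no direction that held across the ways of choosing the cells. In AngII over Vehicle 10 of the 12 measured were lower, with a median of -0.49. With the highest Scrublet doublet scores removed 9 of 11 were higher (median 0.40), and without cells with G2 and M phase genes 7 of 9 were higher (0.36). Isg15, a ubiquitin-like protein that interferon induces, stood at 42.5, 19.7 and 14 CPM.

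Il12b was a gene of few cells in every library. It stood at 219, 274 and 81.7 CPM, with UMIs in 7, 11 and 7 cells, of which 3, 5 and 5 held 90%. In AngII_VWR over AngII its fold was 0.299 (0.229 to 0.384). Ccr7, the receptor that guides mature dendritic cells to lymph nodes, had UMIs in 0, 2 and 0 cells, and 1 AngII cell held 36 of 37. Fscn1, an actin-bundling protein of mature dendritic cells, had UMIs in 1, 3 and 1 cells. Il1b was spread more widely, over 48, 70 and 58 cells, at 3152.4, 2023.1 and 1279.2 CPM.

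Co-stimulation and checkpoint genes were evenly split in AngII over Vehicle, with 8 of 16 higher and a median of 0.05. Cd86, a ligand of CD28, stood at 601, 979 and 544 CPM, a fold of 1.63 (1.5 to 1.77), while Cd80, which binds the same receptor, stood at 294, 214 and 139 CPM, a fold of 0.729 (0.632 to 0.84). Cd274 (PD-L1) stood at 7.09, 45.4 and 17.5 CPM, with UMIs in 5, 20 and 7 cells. Cd83, a maturation marker, stood at 2103.2, 1263.2 and 1208.0 CPM. Cd86, Cd274 and Havcr2 were thus highest in the AngII library and Cd80 and Cd83 in the Vehicle library. In the MHC class I list 18 of 26 were higher with a median of 0.16, and in the MHC class II list 7 of 15 with a median of -0.07. H2-Oa, a subunit of the class II peptide exchange inhibitor, had the highest ratio of the latter, at 60.7, 124 and 68.9 CPM.

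Dissociation stress genes were lower in the AngII library: 24 of 24 had a negative ratio, 16 of them at least 2-fold, with a median of -1.29. Fos stood at 2657.7, 657 and 1503.3 CPM, a fold of 0.247 in AngII over Vehicle (0.232 to 0.264), and Jun at 1165.0, 232 and 459 CPM, a fold of 0.199 (0.179 to 0.221). Egr1 stood at 830, 208 and 664 CPM. The list was highest in the Vehicle library in the other myeloid populations as well, with sums of 37431.5, 22138.9 and 23920.5 CPM in the C1q macrophages. In the barcodes above the collagen limit the sums were 30323.6, 30887.3 and 24482.1 CPM. The immediate early and heat shock genes among the 10 lowest named genes (Fos, Egr1, Ier2 and Dnajb1) belong to this list, and what part handling of the tissue had in them was not tested. Of the other named genes, Ppp1r15a, a phosphatase subunit induced by stress, stood at 407, 83.3 and 116 CPM, and Lmna, a nuclear lamin, at 629, 158 and 144 CPM.

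Genes of the G2 and M phases were also lower in the AngII library, with 20 of 20 negative, 14 at least 2-fold lower and a median of -1.10. Mki67, a marker of proliferating cells, stood at 186, 92.4 and 96.9 CPM, and Top2a, a topoisomerase of dividing cells, at 198, 93.9 and 82.9 CPM. Cells with UMIs of at least 5 of the 20 genes numbered 11 of 56 (19.6%, exact 95% interval 10.2 to 32.4), 12 of 75 (16%, 8.55 to 26.3) and 7 of 76 (9.21%, 3.78 to 18.1). These intervals overlap. After thinning to 5000 UMIs, which left out 1, 1 and 7 shallower cells, the shares were 18.2%, 9.46% and 8.7%. In the C1q macrophages the thinned shares were 1.18%, 2.5% and 2.66%. The Vehicle cells counted here had a median of 32125 UMIs against 20424 in the rest and held 29% of all UMIs summed in that library, compared with 22% and 12% in the AngII and AngII_VWR libraries. S phase genes showed no such shift in AngII over Vehicle (9 of 19 higher, median -0.01), but 18 of 18 were lower in AngII_VWR over AngII, with a median of -0.82. Pcna, the replication clamp, stood at 117, 116 and 54.9 CPM.

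Several named genes were higher in the AngII library in most of its cells. Bbx, a high mobility group box protein, stood at 89, 428 and 334 CPM, 4.8-fold higher in AngII than in Vehicle (3.94 to 5.9), with UMIs in 40, 67 and 58 cells. In the C1q macrophages it stood at 63.1, 64.8 and 63.7 CPM. Chsy3, a chondroitin sulfate synthase, stood at 89.8, 302 and 345 CPM, 3.37-fold higher (2.75 to 4.15). Both were thus high in the 2 libraries of angiotensin II, and the level of Bbx in the macrophages was similar in all 3 libraries. Pot1b, a telomere-binding protein, stood at 89.8, 315 and 96.9 CPM, 3.51-fold higher in AngII (2.87 to 4.32) and 0.307-fold in AngII_VWR over AngII (0.242 to 0.387). Scin stood at 88.2, 292 and 135 CPM, and 1 Vehicle cell held 51 of its 112 UMIs there. Uck2, a uridine and cytidine kinase, stood at 59.1, 215 and 131 CPM, and Mxi1, a partner of Max, at 84.3, 260 and 145 CPM. Cep85l and Ipcef1 were 3.47-fold (2.5 to 4.9) and 2.91-fold (2.38 to 3.58) higher in AngII.

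**Figure D4:**
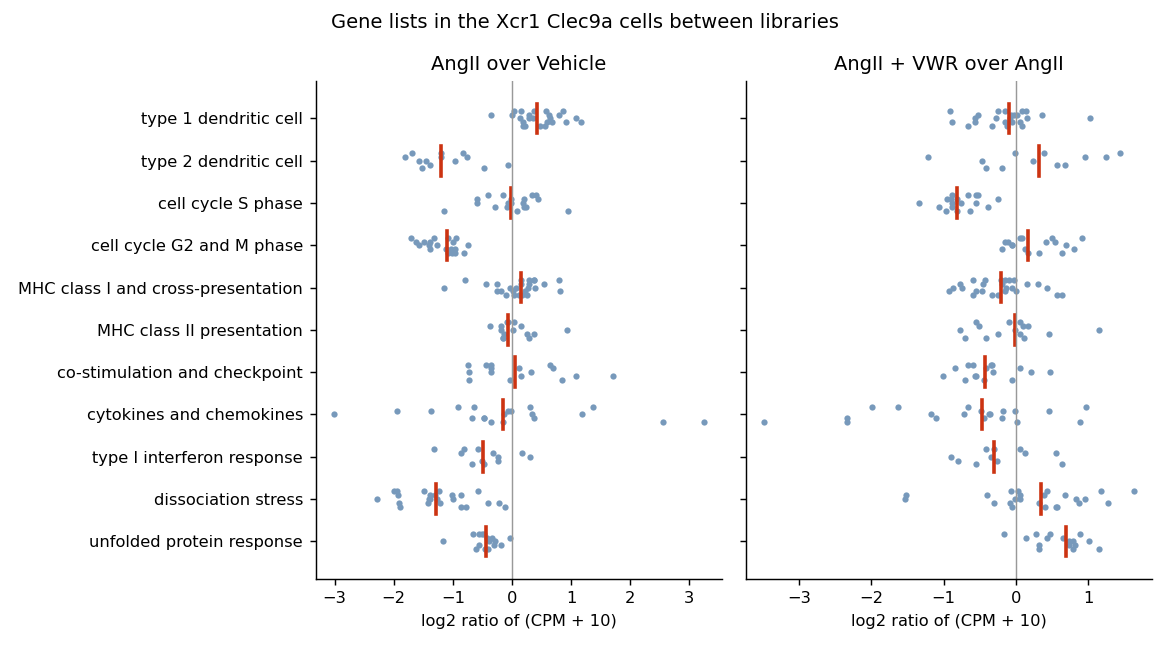
Log2 ratio of CPM + 10 in the Xcr1 Clec9a cells (x axis) for the measured genes of 11 lists (y axis), AngII over Vehicle on the left and AngII_VWR over AngII on the right. Points are genes and red bars list medians, which on the left run from 0.42 for the type 1 list to -1.29 for the dissociation stress list.

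In AngII_VWR over AngII, 289 of 8598 genes were higher by 2-fold or more (3.36%) and 102 lower by as much (1.19%), with a median of 0.11 over all genes, of which 60.7% had a positive ratio. Of the genes past 2-fold, 73.9% were higher, and this split depended on the scaling: with TMM factors 181 were higher and 198 lower (47.8% higher) and the median was -0.07. For AngII_VWR over Vehicle, which shares its libraries with both comparisons, 232 of 8183 were higher (2.84%) and 232 lower (2.84%).

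Cytokine and chemokine genes were mostly lower in the AngII_VWR library than in the AngII library, 16 of 20, of which 7 were at least 2-fold lower, with a median of -0.47. Among the 7, Ccl5, Il12b, Cxcl9, Cxcl10 and Il6 had 97.4%, 86%, 77.9%, 69.5% and 64.6% of their AngII UMIs in 3 cells. The list also had a lower sum in AngII_VWR than in AngII in the Cd209a cells (6775.4 and 12209.6 CPM) and the C1q macrophages (8843.3 and 10205.3 CPM). Ccl4, an inflammatory chemokine, stood at 789, 568 and 104 CPM, a fold of 0.183 (0.146 to 0.227), with UMIs in 29, 44 and 32 cells. In the C1q macrophages it stood at 1168.5, 1291.0 and 572 CPM. Ccl22, a ligand of Ccr4, stood at 219, 133 and 56 CPM, a fold of 0.422 (0.303 to 0.576). Both had their lowest value in the AngII_VWR library. In the same direction, 13 of 16 co-stimulation genes were lower, with a median of -0.43, and 20 of 26 MHC class I genes, with a median of -0.21. The co-stimulation sum was also lower in AngII_VWR than in AngII in the Cd209a cells (3688.1 and 5367.4 CPM) and the C1q macrophages (3345.1 and 5641.0 CPM). In the barcodes above the collagen limit it was higher (485 and 394 CPM). The fold of Cd86 was 0.555 (0.501 to 0.615). Among the other named genes that were lower there, Grk5, a kinase of G protein-coupled receptors, stood at 198, 382 and 95.7 CPM, and Slc16a6, a transporter of the monocarboxylate family, at 84.3, 141 and 30.3 CPM. Hist1h1c, a linker histone, stood at 121, 132 and 30.3 CPM and at 82.7, 130 and 33.5 CPM in the C1q macrophages. Hspa1b, an inducible heat shock protein, stood at 446, 179 and 54.9 CPM.

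Unfolded protein response genes, chaperones and enzymes of protein folding, had their lowest levels in the AngII library. In AngII over Vehicle 16 of 16 were lower, 1 at least 2-fold, with a median of -0.44, and in AngII_VWR over AngII 15 of 16 were higher, 2 at least 2-fold, with a median of 0.69. Sdf2l1, an endoplasmic reticulum chaperone component, stood at 210, 158 and 328 CPM and Pdia4, a disulfide isomerase, at 57.5, 34.3 and 87.5 CPM. The sums of the list were 4064.6, 2940.4 and 4326.6 CPM in the Xcr1 Clec9a cells and 4415.4, 3042.1 and 4412.8 CPM in the C1q macrophages. The AngII library had the lowest sum in both populations. It was also lowest in the Cd209a cells (4726.0, 3533.3 and 4127.6 CPM) and in the barcodes above the collagen limit (6459.7, 4201.7 and 6285.7 CPM).

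Of the named genes higher in the AngII_VWR library, several were also higher in the macrophages of that library. Slc38a2, an amino acid transporter, stood at 118, 85.8 and 313 CPM, 3.64-fold higher in AngII_VWR than in AngII (3 to 4.44), and at 143, 94.1 and 332 CPM in the C1q macrophages. Ints6, a subunit of the Integrator complex, stood at 47.3, 45.4 and 147 CPM and in the macrophages at 53.5, 45.6 and 261 CPM. Homer1, a scaffold protein, stood at 66.2, 54 and 194 CPM, whereas the macrophages had 99.5, 118 and 110 CPM. Ifitm1, an interferon-induced membrane protein, stood at 5.51, 8.08 and 158 CPM, but its 135 UMIs came from 14 of 76 cells. With all 3 transcripts of the rule required, its log2 ratio was 0.83 in place of 3.21. Plac8, a gene of monocytes and plasmacytoid cells, stood at 103, 59.1 and 337 CPM, with UMIs in 12, 21 and 37 cells. In AngII_VWR over AngII 7 of 7 monocyte genes were higher (median 0.85), as were 6 of 7 plasmacytoid genes, 4 of them at least 2-fold. The plasmacytoid gene Siglech stood at 47.9 CPM in all AngII_VWR cells and at 4.9 CPM without the mixed cells. The part of monocytes and plasmacytoid cells in the Plac8 level was not tested. The named genes Tcof1, Midn, Mbd5 and Mthfs were between 3.08-fold and 3.85-fold higher. S100a4, a calcium-binding protein of the type 2 list, stood at 197, 49 and 151 CPM and was thus lowest in the AngII library.

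**Figure D5:**
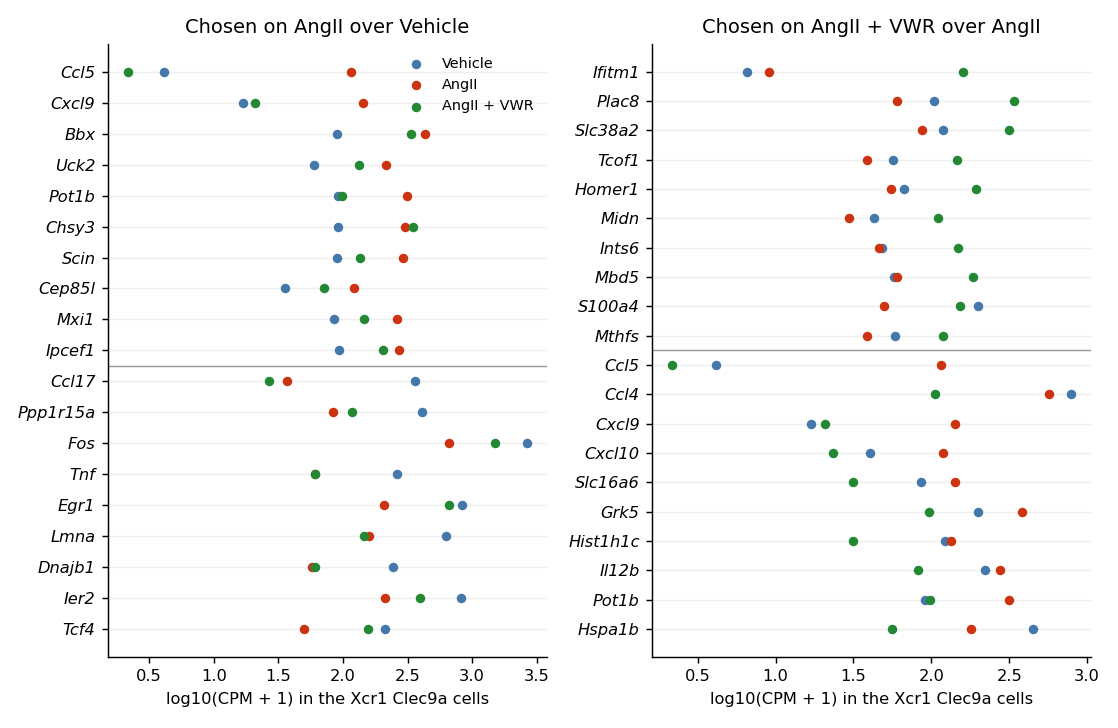
Levels of the named genes in the Xcr1 Clec9a cells as log10 of CPM + 1 (x axis), with 1 point per library. The left panel holds genes chosen as highest and lowest in AngII over Vehicle and the right panel those of AngII_VWR over AngII, each separated by a line, and 1 gene that is not reported here is left out. Bbx and Chsy3 lie apart from Vehicle in both AngII libraries, while Cxcl9 and Pot1b have their highest level in AngII.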

How the data were processed

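Gene-by-barcode UMI counts were deposited as filtered 10x matrices, 1 per library, made from adventitia that was peeled, digested with Liberase and elastase and strained, per the labels' protocols. The authors made the counts with Cell Ranger 7.0.1 (Vehicle, AngII) and 7.1.0 (AngII_VWR), per the file headers, on mm10, per the submitters' processing notes. Barcodes with at least 500 UMIs, at least 300 genes and at most 10% mitochondrial UMIs were kept. Doublets were not removed; in an alternative, the highest Scrublet scores were (0.8% per 1000 barcodes), because Scrublet's own threshold marked 248, 142 and only 1 kept barcode. The members, gene lists and tests were chosen with earlier results of these data known.

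Counts were summed over cells per library and population. Levels are CPM of these sums. Between conditions, a gene entered with 20 UMIs over the pair, ratios used a pseudocount of 10 CPM, and no test was possible with 1 library per group. Shares have exact Clopper-Pearson 95% intervals and ratios exact conditional ones. Populations were compared with edgeR 4.0.16 (R 4.3.3; glmQLFit, glmQLFTest, TMM, filterByExpr, library as block, Benjamini-Hochberg over all genes tested). Nothing in the labels says that the mice of a library can be told apart, so its p-values measure the spread between 3 libraries of 3 treatments. Genes of the population rules stayed out of the calls. Standard errors are the log2 fold change over the root of F. On simulated data the edgeR step recovered 35% of 2-fold and 98% of 4-fold changes against Cd209a cells (7863 genes), and 32% and 93% against macrophages (13229 genes). The changes were placed only in genes above a minimum mean count. The dispersion was fixed and the simulated libraries differed only in size, so lower genes and the spread between treatments were not covered.

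Genes were named by a fixed rule. Between conditions these were the 10 highest and 10 lowest log2 ratios among genes whose higher library had at least 30 UMIs, 100 CPM and 0.5 times the CPM of its other kept barcodes. Between populations they were the 15 (Cd209a cells) or 10 (macrophages) highest and lowest fold changes among called genes with the same direction in 3 libraries and at least 100 CPM. Mitochondrial, ribosomal protein, haemoglobin, immunoglobulin, unnamed and rule genes were left out. List members could also be named. A few genes that met the rule are not reported here. Alternatives covered the quality filters, doublets, marker rule, C1q limit, depth, denominator, pseudocount, low-count filter, weighting of cells, free RNA, scaling, DESeq2 1.42.0 and each library left out. Leaving out mixed cells, cells with G2 and M phase genes and, per gene, the cell with most UMIs was added after seeing the data.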

Additional observations from a re-analysis of the deposited data

How the results depend on the processing

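No paired analysis was possible because each group has 1 library and the only replicate number is 1; the edgeR fits already use the library as a block. Of 20 ratios of shares under alternatives, 19 stayed within the counting interval. With all 3 marker transcripts required, the share in AngII_VWR over AngII was 0.355 in place of 0.527. With barcodes thinned to 2000 UMIs under the main rule it was 0.534. With a pseudocount of 1 CPM, 312 genes passed 2-fold upwards and 680 downwards in AngII over Vehicle, and 754 higher and 330 lower in AngII_VWR over AngII, since low genes are shrunk less. With TMM factors, AngII_VWR over AngII gave 181 higher and 198 lower. Against Cd209a cells, DESeq2 called 327 genes higher, 321 of them also called by edgeR, and with no filter beyond 1 UMI 835 were higher and 1034 lower among 17548 tested. Leaving out 1 library gave 161 to 680 higher and 224 to 917 lower against Cd209a cells, and 1520 to 1830 higher and 1887 to 2416 lower against macrophages; the fewest calls came without the AngII library (161 and 224) and without the AngII_VWR library (189 and 249). Of 598 list medians, 43 changed sign. Of these, 39 had reported medians between -0.28 and 0.31. The others were all in AngII over Vehicle: the plasmacytoid list, from -1.58 to 0.38 over 4 genes with the highest Scrublet scores removed, and the type I interferon list, from -0.49 to 0.40 with those scores removed, 0.36 without cells with G2 and M phase genes and 0.02 as the mean of each cell's CPM. Of 1036 values of named genes between conditions, 947 stayed the same, 86 moved and 3 whose counting interval had excluded 1-fold changed sign, all in AngII over Vehicle: Plac8 at 1.04 with those scores removed, and Il12b at -0.75 and Slc38a2 at 0.01 without cells with G2 and M phase genes. The cause of these changes was not tested. Of 500 values of named genes between populations, 499 kept their call, and P3h2 against Cd209a cells did not (edgeR adjusted p = 0.0573 without the AngII_VWR library). The summed AngII_VWR cells held 856790 UMIs, the fewest of the 3 libraries, which limits low genes there most.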

Other observations

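The source of the ligands for the receptors of these cells was examined in all kept barcodes. Xcl1, the ligand of Xcr1, had 170, 323 and 139 UMIs in the Vehicle, AngII and AngII_VWR libraries. Of these, 169, 311 and 133 were in barcodes with a UMI of a lymphoid marker gene. Barcodes above the collagen limit held 1, 14 and 27, and 0, 1 and 0 of the Xcr1 Clec9a cells held one. The lymphoid and collagen classes overlapped, since their UMIs together exceeded the total in the AngII and AngII_VWR libraries. Flt3l, the ligand of Flt3, had 4056, 2611 and 1315 UMIs, of which 3012, 2155 and 1096 were in barcodes above the collagen limit, the fibroblasts of the tissue. These barcodes also held most transcripts of any kind, 90332125, 94407060 and 75066617 UMIs. All kept barcodes other than the Xcr1 Clec9a cells held 160446168, 136100806 and 103369490 UMIs. Whether Flt3l was enriched in fibroblasts was not tested. Summed over all kept barcodes, Flt3l stood at 25.1, 18.9 and 12.6 CPM and Xcl1 at 1.05, 2.34 and 1.33 CPM.

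Receptors for angiotensin II were at or near 0 in the Xcr1 Clec9a cells. Agtr1a had UMIs in 0, 1 and 0 cells, and Agtr1b and Agtr2 in 0 cells of every library. A count of 0 allows a level of up to 2.36, 1.51 and 3.5 CPM in the 3 libraries, for counting error only. Ramp1, a subunit of the receptor for the neuropeptide CGRP, stood at 79.6, 45.9 and 49 CPM. Against the Cd209a cells Ramp1 was lower, with a log2 fold change of -1.02 ± 0.20 (edgeR adjusted p = 0.012). Chrm3, a muscarinic acetylcholine receptor, stood at 18.1, 11.6 and 11.7 CPM, with UMIs in 7, 6 and 6 cells, against 0, 0 and 1.204 CPM in the Cd209a cells, which held 1 UMI in all. Nr3c1, the glucocorticoid receptor, stood at 109, 89.9 and 86.4 CPM.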
